A study of Mus musculus with 12 samples.

Results

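The pocket proteins and the E2F factors were followed as 1 family of 10 genes, the pocket protein genes Rb1, Rbl1 and Rbl2 and the factor genes E2f1, E2f2, E2f3, E2f4, E2f5, E2f6 and E2f7, matched by name among the 55401 genes of the count table. All 10 were among the 25771 genes with enough counts to be tested. The family was chosen by the level of Rb1 in activated KO against activated WT libraries, so that contrast and the state changes of Rb1 are described with no test, and the other contrasts of the members were tested.

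RNA sequencing was performed on 12 libraries of satellite cells, the stem cells of skeletal muscle, sorted from hind limb muscle of adult mice by ZsGreen fluorescence. Every mouse carried Cxcr4 FL/FL, in which the chemokine receptor gene can be deleted, and Pax7-ZsGreen, which labels Pax7+ cells. KO mice also carried Pax7-creERT2, an inducible recombinase driven by Pax7, and WT mice lacked it, so the recombinase and the deletion cannot be told apart. All mice received tamoxifen at 80 mg per kg for 5 days. There were 4 WT quiescent, 4 KO quiescent, 2 WT activated and 2 KO activated libraries, where activated cells had been cultured overnight and quiescent cells had not.

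Pocket proteins bind E2F factors and hold the genes of DNA replication in check until cyclin-dependent kinases phosphorylate them. E2f1, E2f2 and E2f3 are known as activators of those genes, E2f4 and E2f5 as partners of Rbl1 and Rbl2 in repression, and E2f6 and E2f7 as repressors that do not need a pocket protein. In satellite cells, which rest until injury and then enter the cell cycle, Rb1 and Rbl2 are associated with quiescence.

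The libraries of the 2 states stood apart in ways other than culture. Quiescent libraries held 12775593 to 23717013 counts and activated libraries 3172164 to 5427280, and 1 abundant gene, CT010467.1, took 11.5% to 40.3% of the counts of an activated library and at most 0.807% of a quiescent one. Xist, transcribed from the inactive X chromosome, averaged 626 CPM in WT activated and 742 CPM in KO activated libraries against 4.04 and 3.14 CPM in the quiescent ones, and Eif2s3y, a Y-linked gene, was at 0 in every activated library. The 4 listed Y-linked genes, Kdm5d, Eif2s3y, Uty and Ddx3y, were called lower in activated than in quiescent cells of both genotypes. The labels give no sex. The state therefore cannot be told apart from sex as read from these genes, the depth or the abundant gene. Pax7, the defining gene of satellite cells, was present in every library, at 107 and 111 CPM in WT activated and 71.2 and 129.5 CPM in KO activated libraries. It ranged from 303 to 482 CPM in WT quiescent and from 181 to 290 CPM in KO quiescent libraries. The quiescent groups thus did not overlap, as for 1.7% of all genes. The log2 fold change of KO against WT was -0.67 ± 0.23 (unadjusted p = 0.00987, edgeR) and was not called. Cxcr4 itself ranged from 59.1 to 112 CPM in WT quiescent and from 12.5 to 21.2 CPM in KO quiescent libraries. In activated cells it was 33.3 and 14.5 CPM in WT and 5.39 and 13.7 CPM in KO, so the second library of each genotype differed little.

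Promoter windows of 4 members are shown because Rbl1, E2f2 and E2f3 had lower mean levels in KO than in WT activated libraries and E2f7 had the lowest level of the family after culture. E2f1 had a lower mean level in KO too, but its RefSeq window lies inside the span of the gene in GENCODE and is not printed. Each window holds 100 bases upstream of a RefSeq start site in GRCm38.p6, the last 100 before the start for Rbl1, E2f2 and E2f3 and bases 244 to 145 before it for E2f7, read 5′ to 3′ on the strand of the gene, and capitals mark an E2F motif. Rbl1 lies at chr2:157204535-157204634 on the minus strand, E2f2 at chr4:136172174-136172273 on the plus strand, E2f3 at chr13:29986064-29986163 on the minus strand and E2f7 at chr10:110745195-110745294 on the plus strand.
Rbl1: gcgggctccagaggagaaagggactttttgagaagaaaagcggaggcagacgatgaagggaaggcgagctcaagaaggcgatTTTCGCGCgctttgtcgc
E2f2: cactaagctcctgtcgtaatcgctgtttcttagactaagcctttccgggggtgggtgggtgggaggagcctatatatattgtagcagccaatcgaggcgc
E2f3: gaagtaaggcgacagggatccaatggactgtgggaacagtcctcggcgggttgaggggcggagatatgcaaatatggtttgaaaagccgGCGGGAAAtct
E2f7: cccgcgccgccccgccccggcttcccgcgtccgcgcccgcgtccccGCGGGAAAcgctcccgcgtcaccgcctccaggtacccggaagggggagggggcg

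The letters searched on both strands were TTTCCCGC, TTTGGCGC, TTTCGCGC and TTTGCCGC. Of the 7 members matched to RefSeq promoters, 3 held one of them in the 250 bases upstream. Rbl1 held TTTCGCGC beginning 18 bases before its start, E2f3 held TTTCCCGC on the opposite strand 11 bases before its start, and E2f7 held TTTCCCGC on the opposite strand 198 bases before its start. No match was in these upstream windows of E2f1, E2f2, Rbl2 or E2f6, and Rb1, E2f4 and E2f5 were not matched. For E2f1 the window lies inside the GENCODE span of the gene, so the bases upstream of that span were not searched. Counted by gene, 583 of 27025 genes (2.16%) held such a match in any of their RefSeq windows, and among listed E2F target genes 11 of 31 (35.5%) did. Counted by window, the share was 611 of 32851 (1.86%).

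Rb1, the founding pocket protein and a tumour suppressor, spans chr14:73183673-73325822 on the minus strand of GRCm38 (ENSMUSG00000022105). Its level in CPM (reads counted on the gene, scaled to a common library size by the TMM method of edgeR) was 12.3, 12.7, 14.7 and 17.4 in the WT quiescent and 13.0, 16.6, 16.5 and 18.6 in the KO quiescent libraries. It was 10.8 and 11.8 CPM in the WT activated and 49.8 and 63.2 CPM in the KO activated libraries, on 66, 27, 194 and 277 counts. Thus both KO activated libraries lay above all the others. Both WT activated libraries lay below all the quiescent WT ones, though narrowly, at 11.8 against 12.3 CPM. The log2 fold change of KO against WT was 2.33 ± 0.34 (SE, n = 2 and 2) in activated cells, the value that the choice of the family used. In quiescent cells it was 0.18 ± 0.22 (n = 4 and 4), with an adjusted p of 1.0 by the quasi-likelihood test of edgeR. From quiescent to activated cells Rb1 changed by a log2 of -0.35 ± 0.29 in WT and 1.80 ± 0.26 in KO.

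Rb1 shares 408 exonic bases with Lpar6, a receptor gene lying within it, and 488 with its neighbour Rcbtb2, both on the opposite strand, and the strand setting of the counting is not given in the sources used here. Lpar6 was at 33.7 and 18.8 CPM in WT activated and 8.99 and 22.1 CPM in KO activated libraries. Rcbtb2 was at 3.27 and 9.195 CPM in WT activated and 5.65 and 12.3 CPM in KO activated libraries. Neither neighbour separated the KO activated from the WT activated libraries as Rb1 did.

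**Figure D1:**
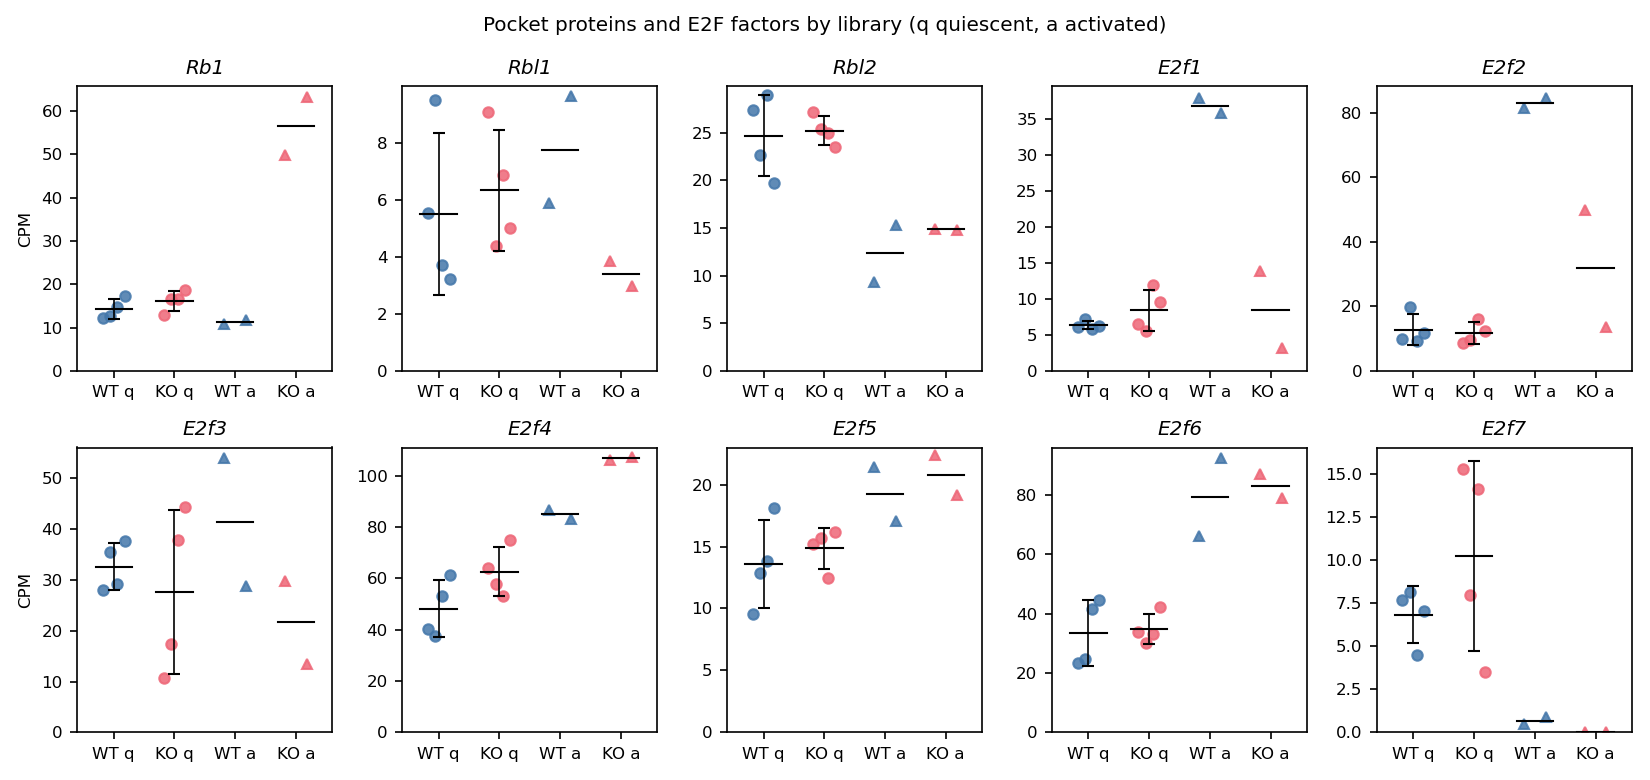
Levels of the 10 members in CPM (y axis, each panel with its own scale from 0) in the 4 groups (x axis, q for quiescent and a for activated, circles and triangles). Points are libraries, horizontal bars are means and error bars are SDs over the 4 quiescent libraries; Rb1 stands at 49.8 and 63.2 CPM in KO activated libraries, above every other library.

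The genes whose levels were most like that of Rb1 over the 12 libraries were Mpc1 (Pearson r = 0.942), Trim35 (0.927), Zscan26 (0.89), Klhl30 (0.88) and Slain2 (0.878), among 8992 genes of moderate or high level. These values are descriptions, since the 12 points share groups, depth and sex. The genes were picked by likeness to Rb1, which was highest in the KO activated libraries. Their higher levels there follow from that choice and are no further evidence. Mpc1, a carrier of pyruvate into mitochondria, was at 8.33 and 10.5 CPM in WT activated and 21.8 and 23.7 CPM in KO activated libraries. Klhl30 averaged 14.8 ± 1.33 CPM (SD, n = 2) in WT activated and 57.8 ± 17.4 CPM (n = 2) in KO activated libraries.

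Rbl1, a pocket protein gene known to be switched on by E2F factors, lies at chr2:157145893-157204534 (minus strand, ENSMUSG00000027641). It was at 5.53, 9.51, 3.73 and 3.23 CPM in WT quiescent and 9.08, 4.37, 6.85 and 5.01 CPM in KO quiescent libraries. In activated libraries it was 5.88 and 9.63 CPM in WT and 3.85 and 2.97 CPM in KO, on 13 to 36 counts a library. The KO activated libraries lay below both WT activated ones and below all KO quiescent ones, with a log2 fold change of -1.16 ± 0.62 for KO against WT in activated cells. Activation was associated with no called change, at 0.47 ± 0.49 in WT (adjusted p = 0.458, edgeR) and -0.90 ± 0.53 in KO (adjusted p = 0.193).

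Rbl2, the pocket protein gene most tied to resting cells, lies at chr8:91070057-91123844 (plus strand, ENSMUSG00000031666). It was at 27.4, 22.6, 28.9 and 19.7 CPM in WT quiescent and 27.1, 25.4, 24.9 and 23.5 CPM in KO quiescent libraries. It was at 9.31 and 15.3 CPM in WT activated and 14.9 and 14.8 CPM in KO activated libraries, below every quiescent library of either genotype. A gene was called where its adjusted p was under 0.05, its absolute log2 fold change above 1 and its mean normalised count above 10. By that rule Rbl2 fell on activation in WT, by a log2 of -1.04 ± 0.31 (adjusted p = 0.0144, edgeR). In KO its change of -0.76 ± 0.29 had an adjusted p of 0.0513 and was not called, and whether the genotypes differ in this change was not tested. The WT call rested on the fold threshold and on the first WT activated library, without which the log2 fold change was -0.61 (adjusted p = 0.395). Rbl2 shares 892 exonic bases with Gm45464 and 693 with Aktip, both on the opposite strand. Aktip was at 17.8 to 21.2 CPM in WT quiescent and 13.3 to 29.7 CPM in KO quiescent libraries, and at 11.6 and 21.02 CPM in WT activated and 22.1 and 29.9 CPM in KO activated libraries. The activated libraries of Aktip did not lie below the quiescent ones as a group in either genotype. The level of Gm45464, which shares more bases, is not given here, so its part in the Rbl2 counts was not tested.

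E2f1, an activator E2F, lies at chr2:154559407-154569892 (minus strand, ENSMUSG00000027490). It was at 6.11, 7.17, 5.88 and 6.21 CPM in WT quiescent and 6.52, 5.602, 11.9 and 9.63 CPM in KO quiescent libraries. After culture it was at 37.9 and 35.9 CPM in WT and at 13.9 and 3.19 CPM in KO, on 232, 82, 54 and 14 counts. Every WT activated library thus exceeded every other library, whereas the KO activated libraries lay on either side of the KO quiescent ones. E2f1 rose on activation in WT, by a log2 of 2.54 ± 0.40 (adjusted p = 7.39e-05, edgeR). In KO the change was 0.00 ± 0.44 (adjusted p = 0.995), and it was -1.41 without the first KO activated library. The log2 fold change of KO against WT in activated cells was -2.12 ± 0.52, and it was -3.54 without the first and -1.47 without the second KO activated library.

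E2f2, a second activator, lies at chr4:136172394-136196057 (plus strand, ENSMUSG00000018983). It was at 10.0, 19.8, 9.299 and 11.8 CPM in WT quiescent and 8.66, 9.56, 16.2 and 12.5 CPM in KO quiescent libraries. In activated libraries it reached 81.5 and 84.5 CPM in WT and 49.8 and 13.7 CPM in KO. The WT groups of the 2 states did not overlap, while the second KO activated library lay inside the range of the KO quiescent ones. E2f2 rose on activation in WT, by 2.71 ± 0.39 (adjusted p = 2.65e-05, edgeR), and in KO, by 1.43 ± 0.40 (adjusted p = 0.00911). The KO call was lost without the first KO activated library, at 0.21 (adjusted p = 0.735). KO against WT in activated cells gave a log2 fold change of -1.39 ± 0.48, which was -2.62 without the first and -0.79 without the second KO activated library.

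E2f3, the third activator, lies at chr13:29906575-29986063 (minus strand, ENSMUSG00000016477). It was at 28.1, 35.55, 29.3 and 37.6 CPM in WT quiescent and spread from 10.8 to 44.4 CPM in KO quiescent libraries, at 10.8, 17.4, 37.8 and 44.4 CPM. It was at 53.9 and 28.9 CPM in WT activated and 29.8 and 13.5 CPM in KO activated libraries. The groups overlapped in every comparison. Its change on activation was 0.36 ± 0.44 in WT (adjusted p = 0.521, edgeR) and -0.36 ± 0.46 in KO (adjusted p = 0.536), and neither was called. All 3 activators were lower in the second than in the first KO activated library.

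E2f4, a repressor that works with the pocket proteins, lies at chr8:105297663-105305370 (plus strand, ENSMUSG00000014859). It was at 40.25, 37.7, 53.3 and 61.4 CPM in WT quiescent and 64.1, 57.9, 53.0 and 75.1 CPM in KO quiescent libraries. It was at 86.75 and 83.2 CPM in WT activated and 106 and 107 CPM in KO activated libraries, above every quiescent library. E2f4 differed between states by a log2 of 0.82 ± 0.25 in WT (adjusted p = 0.0169, edgeR) and 0.77 ± 0.25 in KO (adjusted p = 0.0205), past the threshold on p but not on fold. In quiescent cells its KO against WT difference, 0.38 ± 0.20 (unadjusted p = 0.081, edgeR), had the lowest unadjusted p of the family.

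E2f5, the other pocket-dependent repressor, lies at chr3:14578641-14606309 (plus strand, ENSMUSG00000027552). It ranged from 9.55 to 18.1 CPM in WT quiescent and from 12.42 to 16.15 CPM in KO quiescent libraries. It was at 21.4 and 17.1 CPM in WT activated and 22.35 and 19.16 CPM in KO activated libraries. Its changes on activation, 0.51 ± 0.30 in WT (adjusted p = 0.199, edgeR) and 0.48 ± 0.30 in KO (adjusted p = 0.209), were not called.

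E2f6, which represses as part of a Polycomb complex, lies at chr12:16810963-16839742 (plus strand, ENSMUSG00000057469). It was at 23.2, 24.7, 41.4 and 44.4 CPM in WT quiescent and 33.7, 30.1, 33.2 and 42.1 CPM in KO quiescent libraries. It was at 66.0 and 92.4 CPM in WT activated and 87.1 and 78.9 CPM in KO activated libraries, so the states did not overlap in either genotype. E2f6 rose on activation by 1.24 ± 0.28 in WT (adjusted p = 0.00242, edgeR) and by 1.25 ± 0.28 in KO (adjusted p = 0.00183).

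E2f7, a repressor that is itself known to be induced late in G1 and S phase, lies at chr10:110745439-110787384 (plus strand, ENSMUSG00000020185). It was at 7.67, 8.16, 4.47 and 7.03 CPM in WT quiescent and 15.3, 7.99, 14.1 and 3.49 CPM in KO quiescent libraries. In WT activated libraries 3 and 2 counts were found, 0.490 and 0.876 CPM, and in both KO activated libraries none. E2f7 fell on activation in WT, by a log2 of -3.45 ± 0.77 (adjusted p = 0.00213, edgeR), a call lost without the first WT activated library (-2.87, adjusted p = 0.0676). In KO it was called lower, and a limit of 3 counts over the 2 activated libraries, 0.362 CPM, made it at least 28.8-fold lower than the 10.4 CPM of the pooled KO quiescent libraries. No fold is given between the activated genotypes, where the counts were too few. Limits of this kind cover counting error only.

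In quiescent cells the family showed no called difference between KO and WT. None of the 10 members was called by edgeR or by DESeq2 and none had an unadjusted p under 0.05, where 4 of 25771 genes tested were called (0.0155%) and 448 had an unadjusted p under 0.05. The 10 log2 fold changes of KO against WT ran from -0.24 for E2f3 to 0.58 for E2f7, with a median of 0.16 beside 0.02 over all genes. The KO and WT libraries overlapped for all 10 members, while 1.7% of all genes did not overlap.

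In activated cells 13 of the 25771 genes (0.0504%) were called between KO and WT. Among the members the libraries did not overlap for Rb1 and E2f4, higher in KO, where 15.2% of all genes lay, and for Rbl1, E2f1, E2f2 and E2f7, lower in KO, where 9.5% of all genes lay. Nothing is read from these counts, since the family was selected on this contrast. The members fell on both sides of 0, with 5 of the 10 above it and a median log2 fold change of -0.44 beside 0.00 over all genes, or 0.07 over the 9 without E2f7, whose fitted value depends on the absent counts. Rb1 had the highest value, E2f1, E2f2, Rbl1 and E2f3 lay from -2.12 to -0.96, and Rbl2, E2f4, E2f5 and E2f6 lay between 0.07 and 0.33. The values of Rbl2, E2f5 and E2f6 changed sign when 1 activated library was left out, for Rbl2 and E2f6 to -0.14 and -0.25 without the first WT library and for E2f5 to -0.12 without the second. Without the first KO activated library E2f5 and E2f6 were at -0.03 and -0.02.

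On activation in WT, 3 of the 9 members other than Rb1 were called higher (E2f1, E2f2 and E2f6) and 2 lower (Rbl2 and E2f7), beside 9.65% and 16.5% of all genes. In KO, 2 were called higher (E2f2 and E2f6) and 1 lower (E2f7), beside 11.1% and 18.5% of all genes. The median log2 fold change of all genes on activation was -0.92 in WT and -0.96 in KO, so in this fit a member near 0 lay above the median gene. With all libraries thinned to the smallest total the median was -0.15 in both genotypes, so that comparison depends on the processing. In bulk samples fewer cells of a type and less RNA per cell cannot be told apart. With these state changes moved the markers of other cells. All 11 tested genes of the mature fibre list of 12 were called higher in activated cells of both genotypes, with summed levels of 326 to 1100 CPM in quiescent and 7860 to 19000 CPM in activated libraries. Of 12 satellite cell markers, 10 in WT and 11 in KO were called lower, from summed levels of 6440 to 9830 CPM to 2340 to 3560 CPM. The part of these cells in the members' changes was not tested.

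**Figure D2:**
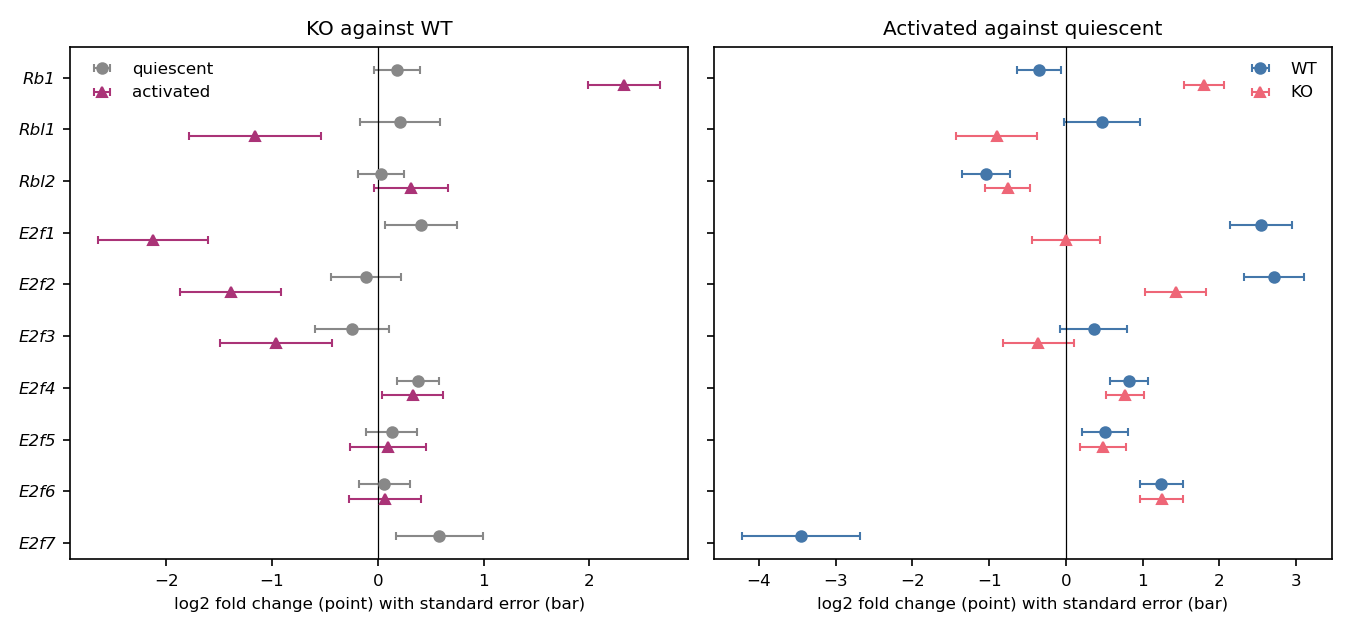
Fold changes of the 10 members (y axis) on the log2 scale (x axis), as points with standard errors as bars, for KO against WT (left) and activated against quiescent cells (right); E2f7 is left out where a group had no counts. Activated KO against WT reached 2.33 for Rb1 and -2.12 for E2f1, and the quiescent values stayed between -0.24 and 0.58.

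Compared between genes as CPM per kb of exon, E2f4 had the highest mean level of the family in all 4 groups, from 19.6 ± 4.55 (SD, n = 4) in WT quiescent to 43.6 ± 0.321 (n = 2) in KO activated libraries. In WT quiescent libraries E2f5 (7.63), E2f3 (6.01) and E2f6 (5.904) followed with overlapping neighbours, then Rbl2 (3.26), E2f2 (2.61), Rb1 (2.38) and E2f1 (2.01), again overlapping, and Rbl1 (0.918) and E2f7 (0.759) were lowest. In KO quiescent libraries E2f4 (25.5) stood apart from E2f5 (8.33), and E2f7 (1.135) and Rbl1 (1.056) overlapped at the low end. In WT activated libraries E2f2 (17.0) was second, with no overlap with E2f4 (34.7) or E2f6 (13.98). In KO activated libraries E2f6 (14.7) and E2f5 (11.7) came next, followed by Rb1 (9.395), which overlapped E2f2 (6.51).

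The make-up of the family was expressed in CPM per kb as the share of Rb1 among the 3 pocket proteins and the share of the activators E2f1 to E2f3 among the 7 E2F genes. The Rb1 share was 36.5 ± 7.85% (SD, n = 4) in WT quiescent and 38.1 ± 6.04% (n = 4) in KO quiescent libraries, a difference with an exact two-sided permutation p of 0.8, also after adjustment over the 2 shares. The activator share was 24.3 ± 5.49% and 19.5 ± 7.2%, with an exact permutation p of 0.314 (0.629 adjusted over the 2 shares), where the smallest p possible was 0.0286. In activated libraries the Rb1 share was 44.7% and 35.1% in WT and 76.0% and 81.0% in KO, and the activator share 39.5% and 36.2% in WT and 22.0% and 8.4% in KO. The activated shares are a description, since they hold the values that chose the family.

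**Figure D3:**
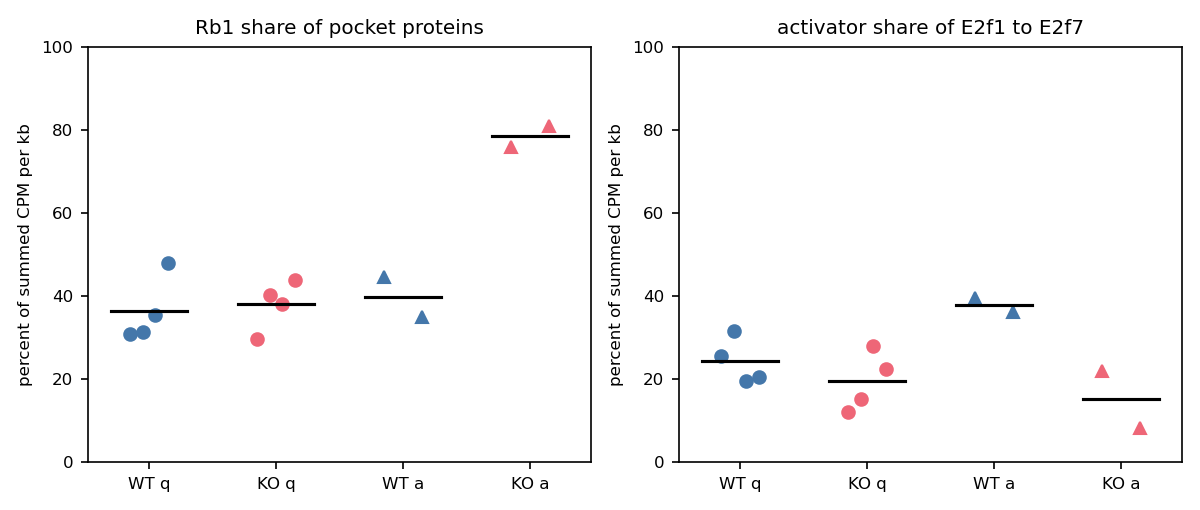
Share of Rb1 in the summed level of the 3 pocket proteins (left) and of E2f1 to E2f3 in that of the 7 E2F genes (right), in percent of CPM per kb (y axis), by group (x axis, q for quiescent and a for activated); points are libraries and bars are means. The 2 KO activated libraries stand at 76.0% and 81.0% on the left and 22.0% and 8.4% on the right.

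Genes that E2F factors are known to switch on were followed with a list of 38, all tested. The activated contrast is the one that chose Rb1, and the list was drawn up with results of these libraries known, so its counts are no independent evidence. In activated cells 34 of the 38 had a negative log2 fold change for KO against WT, with a median of -0.82 beside 0.00 over all genes, and 2 were called lower and 0 higher by edgeR. Rrm2, a subunit of ribonucleotide reductase, was at 39.4 and 37.2 CPM in WT activated and 7.96 and 3.19 CPM in KO activated libraries, lower by a log2 of -2.79 ± 0.45 (adjusted p = 0.0356, edgeR). Mcm4, a subunit of the replicative helicase, was at 25.5 and 34.6 CPM in WT and 7.96 and 5.02 CPM in KO, lower by -2.20 ± 0.37 (adjusted p = 0.0429, edgeR). Both calls were lost without the first WT activated or the second KO activated library, and 29 to 35 of the 38 lay below 0 when any 1 activated library was left out. Tk1, Gins1 and Cdc45 were among those above 0. The summed level of the list was 863 and 888 CPM in WT activated, 668 and 502 CPM in KO activated and 645 to 762 CPM in quiescent libraries.

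On activation 12 E2F targets were called higher and 5 lower in WT, and 4 higher and 11 lower in KO. Ung, a repair enzyme, rose most in both, by 2.96 ± 0.41 in WT (adjusted p = 2e-05, edgeR) and 3.01 ± 0.41 in KO (adjusted p = 1.5e-05). Cdc25a, a phosphatase that activates cyclin-dependent kinases, rose by 2.21 ± 0.27 in WT and 2.27 ± 0.27 in KO. Mcm2, another helicase subunit, rose by 2.25 ± 0.36 in WT and 1.01 ± 0.37 in KO. Among genes with counts in every group, Ccna2, a cyclin of S phase, had the lowest value in KO, at -3.20 ± 0.66. In quiescent cells none of the 38 was called between genotypes, and 26 lay above 0.

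**Figure D4:**
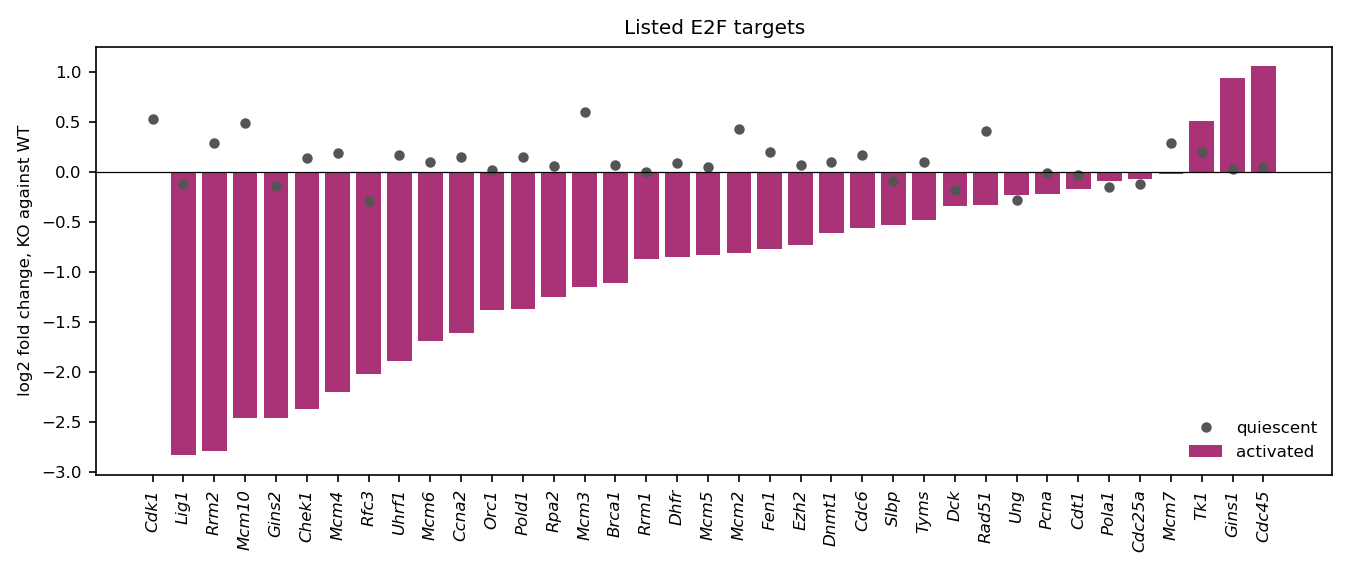
Log2 fold change of KO against WT (y axis) for listed E2F targets (x axis, ordered by value), with bars for activated and grey points for quiescent cells; the activated bar of Cdk1, which had no counts in KO activated libraries, is left out. The activated values run down to -2.83 for Lig1, and the quiescent points lie between -0.29 and 0.60.

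Among 10 binding partners and subunits of the MuvB complex, the assembly that joins the pocket proteins at cell cycle genes, 1 was called lower in KO activated cells and 0 higher. That gene was Foxm1, a factor of mitotic genes, at 9.965 and 7.44 CPM in WT and 0.771 and 0.913 CPM in KO activated libraries. Its log2 fold change was -3.37 ± 0.60 (adjusted p = 0.048, edgeR), on only 3 and 4 counts in the KO libraries. Of all genes 0.0504% were called in this contrast, the one that chose Rb1. This list too was drawn up with results known, so the call is no independent evidence. On activation Tfdp2, a dimerisation partner of E2F factors, fell in WT by -1.27 ± 0.34, and Foxm1 and Mybl2 fell in KO by -4.05 ± 0.55 and -2.62 ± 0.95.

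Of 17 kinases, cyclins and inhibitors of G1, 16 were tested and 0 were called between KO and WT activated cells, with a median of -0.14. On activation in WT 3 were called higher and 6 lower. Ccnd1, the cyclin that directs kinases to Rb1, rose by 2.23 ± 0.38 in WT and 1.21 ± 0.39 in KO, from 71.2 and 71.1 CPM to 333 and 165 CPM. Its kinases Cdk6 and Cdk4 rose in WT by 1.29 ± 0.27 and 1.20 ± 0.26. The inhibitors Cdkn1b and Cdkn2d fell in both genotypes, Cdkn1b by -2.15 ± 0.29 in WT and -1.88 ± 0.28 in KO, and Cdkn2d by -2.49 ± 0.38 in WT and -2.44 ± 0.37 in KO. The cyclin gene Ccne1 fell too, by -2.22 ± 0.60 in WT, to a low activated mean of 1.23 CPM. In KO it was called lower, but its activated mean was 0.128 CPM. This lay below the limit of 3 counts over the 2 KO activated libraries, 0.362 CPM, so no fold is given. The cyclin gene Ccnd2 fell in KO by -2.36 ± 0.53, and its change in WT, -0.93 ± 0.48, was not called. In KO 1 was called higher and 8 lower, beside 11.1% and 18.5% of all genes.

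None of the 13 corepressors that pocket proteins recruit and none of the 10 subunits of the E2f6 Polycomb complex was called between genotypes in activated cells, with medians of 0.02 and 0.18. On activation 5 corepressors were called lower in WT and 4 in KO, with Smarca2, a chromatin remodelling ATPase, falling by -2.66 ± 0.31 in WT and -2.38 ± 0.30 in KO. In the Polycomb list 3 genes in WT and 5 in KO were called higher and 1 lower in each. Its subunit L3mbtl2 rose by 1.77 ± 0.35 in WT and 1.91 ± 0.34 in KO, Pcgf6 rose by 1.35 ± 0.28 and 1.40 ± 0.27, and Rybp fell by -1.74 ± 0.35 and -2.03 ± 0.36. E2f6 itself had risen in both genotypes.

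Markers of early muscle differentiation were set beside the activated values. Of 12, 8 lay above 0 in KO against WT, again in the contrast that chose Rb1. The 1 called was Myh8, a myosin gene of developing muscle, at a log2 of 3.69 (adjusted p = 0.048, edgeR). Their mean log2 CPM was 3.26 and 3.29 in WT activated and 4.28 and 4.60 in KO activated libraries. Their summed level overlapped, at 1830 and 3480 CPM in WT and 1920 and 3020 CPM in KO activated libraries. Other marker lists were shifted in this contrast too. The median log2 fold change was 0.35 for early differentiation, 0.56 for blood, 0.53 for Schwann cells and 0.51 for fibroadipogenic progenitors. It was 0.19 for mature fibre, -0.27 for satellite cells, -0.51 for endothelium and -0.53 for smooth muscle and pericytes, beside 0.00 over all genes. No gene of these other lists was called by edgeR in it. The part of any of these lists in the values of the members was not tested.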

How the data were processed

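RNA was isolated from sorted or overnight-cultured satellite cells, and libraries were made with a NEBNext Ultra kit and sequenced by a service provider. Per the labels and the methods of the study, the authors trimmed reads with Trim Galore 0.6.0, aligned them with STAR 2.7.2a to GRCm38.p6 (mm10) and counted reads per gene. The deposited counts are raw whole reads per gene and library, and the deposited FPKM values are 1 pooled value per group, made by the authors; strand and multimapping settings are not given in the sources used here. Members and gene lists were chosen with earlier results of these data known.

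Counts of all 12 libraries were fitted together with edgeR 4.0.16 (R 4.3.3, TMM scaling, filterByExpr, quasi-likelihood F test, Benjamini-Hochberg adjustment over 25771 genes); DESeq2 1.42.0 was an alternative, and the scripts were tested on simulated data. The labels do not say whether libraries came from separate mice, so p-values measure the spread between these libraries. None of the 14 pairs of libraries within a group were duplicates. All genes with an adjusted p under 0.05, an absolute log2 fold change above 1 and a mean normalised count above 10 were called. Named genes were all members, up to 3 called genes with the largest rise and 3 with the largest fall in each list and contrast, and the 5 genes most correlated with Rb1; Myh8 and genes given as exceptions were named after their values were seen. CPM per kb used exon lengths of GENCODE M21, and 38 of 40 such group means lay within 1 SD of the deposited FPKM. At 90% identity no other gene held a match of 200 bases to a member transcript, apart from overlapping neighbours. Shorter matches were found for E2f7 only, in 316 other genes, and their part in the E2f7 counts was not tested. Lists held markers of satellite cells, muscle differentiation, mature fibres, endothelium, fibroadipogenic progenitors, blood, smooth muscle and Schwann cells. Beside the values in the report, blood markers were called lower in 5 of 10 on activation in WT and 7 of 10 in KO, endothelial markers in 4 and 3 of 10, fibroadipogenic markers in 4 of 10 in each (1 called higher in KO), smooth muscle markers in 5 and 7 of 10, and Schwann cell markers in 7 and 6 of 8. One listed E2F target is counted but not reported here by name and is not drawn.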

Additional observations from a re-analysis of the deposited data

Results flagged for a closer look

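Rb1 differed between the genotypes in its change between states. Both KO activated libraries lay above all KO quiescent ones. Both WT activated libraries lay below all WT quiescent ones, but only by 11.8 against 12.3 CPM, on 66 and 27 counts. The WT change of -0.35 ± 0.29 ran from -0.40 to -0.17 over the alternatives, so a fall in WT is not established. The difference between these changes, KO minus WT, was 2.15 ± 0.40 on the log2 scale, and it was not tested, since Rb1 was chosen by its level in the activated libraries. Among 24 groups of 4 quiescent libraries, for the 10 members and the 2 shares, 0 held a library that stood apart by Dixon's criterion, where chance flags about 1 in 20.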

How the results depend on the processing

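In quiescent cells the number of members called between KO and WT was 0 under every alternative run. On activation in WT, members called higher stayed at 3 or 4 and members called lower, 2 in the report, became 1 with DESeq2 size factors, with a mean count of at least 10, with DESeq2 fitted to all 12 libraries or to 2 groups, with edgeR fitted to 2 groups and with libraries thinned to the smallest total, since Rbl2 then lay at a log2 of -0.89 to -0.98; leaving out 1 library gave 0 to 2. In KO, 2 members were called higher in the report, 3 by the adjusted p alone, and 1 or 2 when 1 library was left out. With thinned libraries the median gene changed by -0.15 on activation in both genotypes, and E2f4 in WT was called (1.08). DESeq2 called 5 E2F targets lower in activated KO (2 in the report), 2 corepressors lower in WT on activation (5) and 2 G1 genes higher in KO on activation (1). Leaving out 1 activated library, an alternative chosen after seeing the data, gave 0 to 2 called E2F targets. The replicate block gave the same counts, 0 members in quiescent cells, 3 higher and 2 lower in WT and 2 higher and 1 lower in KO, and turned E2f3 on activation in KO to 0.13; same-numbered quiescent libraries of the 2 genotypes correlated at -0.266 to 0.587 and activated ones at -0.071, not always best with their own number, so the numbers were not taken as pairs. Values near 0 changed sign when 1 library was left out. For quiescent KO against WT the log2 fold changes then ran from -0.02 to 0.61 for Rbl1, -0.06 to 0.12 for Rbl2, -0.31 to 0.19 for E2f2, -0.56 to 0.03 for E2f3, -0.01 to 0.30 for E2f5 and -0.09 to 0.22 for E2f6. On activation they ran from -0.10 to 0.78 for E2f3 in WT, -1.05 to 0.12 for E2f3 in KO and -1.41 to 0.73 for E2f1 in KO, and E2f1 in KO stood at -0.00 with no filter on low counts. For activated KO against WT they ran from 2.09 to 2.47 for Rb1, -1.59 to -0.86 for Rbl1, -0.14 to 0.60 for Rbl2, -3.54 to -1.47 for E2f1, -2.62 to -0.79 for E2f2, -1.65 to -0.51 for E2f3, 0.22 to 0.32 for E2f4, -0.12 to 0.19 for E2f5 and -0.25 to 0.26 for E2f6. The cause was not tested beyond what each alternative leaves out. The quiescent KO minus WT differences in the shares ran from -0.406 to 5.36 percentage points for Rb1 and from -7.73 to -2.40 for the activators. The depth of the activated libraries limits E2f7 and Rbl1 most.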
